A study of Homo sapiens with 2 samples.

Results

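The genes described here encode 10 ligands through which a tumour cell can activate natural killer (NK) cells. MICA, MICB, ULBP1, ULBP2, ULBP3 and RAET1G bind the receptor NKG2D, PVR and NECTIN2 bind DNAM-1, and NCR3LG1 and BAG6 bind NKp30. They were chosen by name and found by Entrez Gene identifier, and all 10 were listed in both files, among 16085 genes and loci listed in either. Transcripts were measured by poly(A)-selected RNA sequencing in 1 library of cells in which ZEB1 was knocked down (shZEB1) and 1 library of cells that carried a control hairpin (shCtrl). The labels name MDA-MB-231, a triple-negative human breast cancer line, for both. The study asked how ZEB1, a transcription factor that represses epithelial genes, acts through cancer cells on tumour macrophages. The sources used here do not give the hairpin sequence, the vector or whether each line was a clone or a pool.

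NKG2D is an activating receptor of NK cells and of some T cells, and its ligands are relatives of MHC class I that healthy cells carry in small amounts and that stress, DNA damage and transformation are known to induce. DNAM-1 (CD226) reads the adhesion molecules PVR and nectin-2, which the inhibitory receptor TIGIT binds as well. NKp30 reads B7-H6, the product of NCR3LG1, and BAG6, a chaperone that acts inside the cell and can be released. Transcript levels do not show how much ligand stands on the surface, since these proteins are also shed, retained and degraded.

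Reads assigned to genes and loci came to 8441491 in shZEB1, with 15447 listed, and to 8740584 in shCtrl, with 15365 listed. The targeted gene, ZEB1, had 15 reads in shZEB1 and 46 in shCtrl (read ratio 0.338, interval 0.175 to 0.616). Its FPKM was 0.31 in shZEB1 and 0.88 in shCtrl, below the FPKM of 1 taken here as measured. ZEB2 had an FPKM of 11.3 in shZEB1 and 16.3 in shCtrl (read ratio 0.697, interval 0.640 to 0.760). The line label was not matched by marker genes: 11 of 12 melanocyte lineage markers reached an FPKM of 10 in each library, among them PMEL with 405 in shZEB1 and 703 in shCtrl, whereas KRT19 was in neither file and EGFR had 0.65 in shZEB1 and 0.52 in shCtrl. Of 12 markers of basal-type breast lines, 5 reached an FPKM of 10 in shZEB1 and 6 in shCtrl. The highest were MSN, with 235 in shZEB1 and 199 in shCtrl, and CD44, with 134 in shZEB1 and 147 in shCtrl. NK cell markers were at or near 0. Of 16 NK cell markers 9 were in neither file, KLRK1, NCR1, NCR3 and GNLY among them, and the markers summed to an FPKM of 3.44 in shZEB1 and 2.76 in shCtrl, most of it from KLRD1. A list of 9 leukocyte and macrophage markers summed to 4.58 in shZEB1 and 2.83 in shCtrl, with LYZ at 4.47 in shZEB1 and 2.25 in shCtrl, and PTPRC was in neither file. Whether these traces bear on the ligand values was not tested.

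Each condition had 1 library, so no test between shZEB1 and shCtrl was possible. FPKM scales reads to gene length and library total, so it allows levels of different genes to be compared. Differences are given as log2((FPKM shZEB1 + 1)/(FPKM shCtrl + 1)) and as the ratio of reads scaled to the library totals, with a 95% exact binomial interval that covers counting error only. Amplified reads with no molecular identifier can repeat a molecule, so that interval may be too narrow, and how cultures vary is unknown here. Genes whose FPKM reached 1 in shZEB1 or in shCtrl were taken as measured. A measured gene was counted as higher or lower in shZEB1 where the log2 ratio reached 1 or -1 and the interval left out a ratio of 1.

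No measured activating ligand gene differed by 2-fold. Of the 10 genes 8 were measured, and 0 were counted as higher and 0 as lower, against 0.937% and 1.61% of the 12274 measured genes (2.55% in either direction). A reading without the fold gave more: the interval lay above 1 for 2 of the 8 and below 1 for 1, against 27.9% and 21.4% of all measured genes (49.3% in either direction), so the ligands' share was no larger than the background. PVR lay lower in shZEB1, NCR3LG1 and BAG6 lay higher, and the intervals of MICA, MICB, ULBP2, ULBP3 and NECTIN2 included 1. The median log2 ratio of the 8 was 0.06, with 4 above 0 and 4 below, beside 0.02 for all measured genes, of which 53.1% lay above 0.

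Levels spanned a wide range, and their order changed at 2 places between the libraries. BAG6 stood highest, with an FPKM of 104 in shZEB1 and 94.6 in shCtrl, above 95.7% and 94.7% of the genes listed in each. NECTIN2 came second in both. Behind it, MICB (20.2) stood before PVR (17.5) in shZEB1, with counting intervals that overlapped, while in shCtrl PVR (25.1) stood before MICB (17.6) with intervals that did not. NCR3LG1 (9.87) stood before MICA (9.02) in shZEB1, again with overlapping intervals, while in shCtrl MICA (13.5) stood before NCR3LG1 (6.93) without overlap. ULBP2 and ULBP3 followed in both libraries, although in shCtrl the intervals of NCR3LG1 and ULBP2 overlapped. RAET1G and ULBP1 came last, at an FPKM of 0.10 or less, and could not be told apart from each other in either library.

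**Figure D1:**
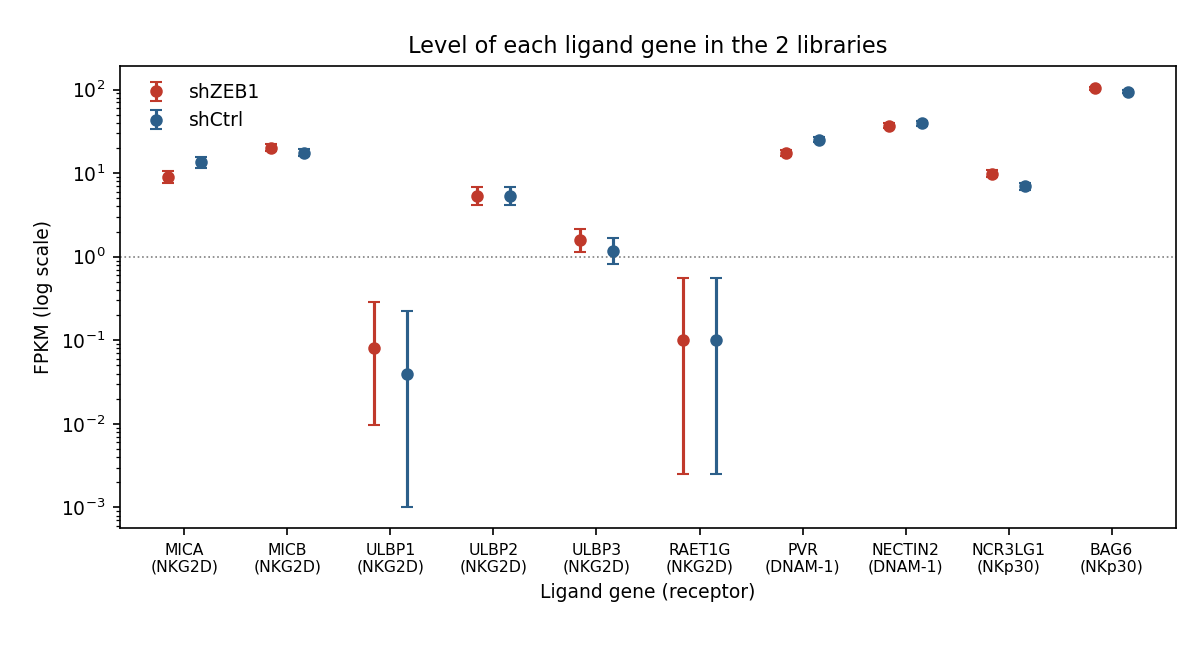
FPKM (log axis) of the 10 ligand genes in the shZEB1 library (red) and the shCtrl library (blue), with the receptor of each in brackets; bars are 95% exact Poisson intervals of the reads and cover counting error only, and the dotted line marks an FPKM of 1. BAG6 stands highest at 104 in shZEB1 and 94.6 in shCtrl, and ULBP1 and RAET1G lie below 1 in both.

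Among the NKG2D ligands, the closely related pair MICA and MICB had read ratios on opposite sides of 1, each with an interval that included 1. Both encode membrane proteins with an MHC class I fold that carry no peptide. MICA (Entrez Gene 100507436) spans chr6:31400711-31415315 on GRCh38.p14 and MICB (Entrez Gene 4277) chr6:31494918-31511124. The bases before the start that RefSeq's promoter table uses for each are shown because they are the most alike of all promoter windows of the set. For both genes that start lies inside the gene span above, so the stretches precede an internal start and not the first annotated base of the gene. In each, the first capitals mark GAANNTTC, the core of a heat shock element, and the second mark CAGGTG, the reverse complement of the E-box CACCTG that ZEB1 is known to bind. Both stretches are on the plus strand, from RefSeq, GRCh38.p14, at chr6:31403345-31403594 for MICA and chr6:31497895-31498115 for MICB.
MICA: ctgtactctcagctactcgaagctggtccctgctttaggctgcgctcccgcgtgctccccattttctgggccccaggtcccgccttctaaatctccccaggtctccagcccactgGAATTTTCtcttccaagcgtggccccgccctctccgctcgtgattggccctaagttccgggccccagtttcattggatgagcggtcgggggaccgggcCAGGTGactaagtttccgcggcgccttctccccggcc
MICB: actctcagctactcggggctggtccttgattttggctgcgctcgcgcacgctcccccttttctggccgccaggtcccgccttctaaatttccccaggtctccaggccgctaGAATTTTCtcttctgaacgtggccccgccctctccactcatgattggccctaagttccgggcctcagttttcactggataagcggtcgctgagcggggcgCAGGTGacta

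Over the 250 bases before the start, the MICA and MICB promoters were identical at 210 of 254 aligned positions (82.7%), and the next most alike pair, ULBP2 and RAET1G, at 56.6%. Counted back from that internal start, the E-box begins 37 bases before it in MICA and 39 in MICB, and the heat shock core begins 135 bases before it in MICA and 139 in MICB. Of 35116 promoter windows of that length in the table, 17.5% held an E-box on either strand, 5.78% held the heat shock core and 0.832% held both. A match of letters is a description and not a bound site. In GENCODE 29 the last 16 bases of the MICA window and the last 30 printed for MICB lie inside exons of these genes.

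MICA had an FPKM of 9.02 in shZEB1 and 13.5 in shCtrl, from 143 and 184 reads. The ratio of FPKM was 0.668, with a log2 ratio of -0.53. The ratio of reads was 0.805 (interval 0.642 to 1.007), so the reads alone did not separate the libraries. The measures part because the gene length the authors divided by was 1924 bases in shZEB1 and 1614 in shCtrl, a difference of over 10% that only 4.16% of the measured genes shared. In such files the length is commonly an average over the transcripts weighted by their estimated amounts; which MICA transcripts differed is not in the files. With reads scaled by edgeR or DESeq2 in place of library totals, the upper end of the MICA interval fell below 1 (0.969 and 0.972).

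MICB, the neighbour of MICA on chromosome 6, had an FPKM of 20.2 in shZEB1 and 17.6 in shCtrl, from 412 and 371 reads. Its read ratio of 1.15 had an interval (0.997 to 1.327) that just included 1. It was the most abundant NKG2D ligand transcript in both libraries and carried 55.5% of the summed FPKM of the 6 in shZEB1 and 46.6% in shCtrl. MICA carried 24.8% in shZEB1 and 35.8% in shCtrl. Of the 50-base stretches of the MICA transcripts in GENCODE 29, 1.89% also occur unchanged in MICB. Stretches that differ by a few bases were not counted, so how many reads the pair shared is not known. The estimated reads were fractional for MICA (142.59 in shZEB1, 183.64 in shCtrl) and for MICB (412.04 in shZEB1, 371.45 in shCtrl). Both genes are highly polymorphic in people, and reads of an allele unlike the reference may be missed.

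The ULBP genes, which lie in a cluster on the long arm of chromosome 6, were scarcer. On GRCh38.p14, RAET1G spans chr6:149916878-149923121, ULBP2 chr6:149942014-149949235, ULBP1 chr6:149963943-149973715 and ULBP3 chr6:150061053-150069121. ULBP2, a ligand held to the membrane by a lipid anchor, had an FPKM of 5.35 in shZEB1 and 5.37 in shCtrl, from 62 and 64 reads (read ratio 1.00, interval 0.696 to 1.44). ULBP3, another lipid-anchored ligand, had 1.6 in shZEB1 and 1.17 in shCtrl, from 42 and 32 reads (read ratio 1.36, interval 0.838 to 2.22). At these depths the reads did not separate the libraries for either gene. ULBP1 had 2 reads in shZEB1 and 1 in shCtrl, and RAET1G, which encodes a ligand with a transmembrane segment, had 1 read in each. Those counts give no usable ratio.

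Similar copies add uncertainty to these 4 genes. Of the 50-base stretches of ULBP2, 29.4% also occur in RAET1L and 11.6% in RAET1G, and 12.4% of those of ULBP3 occur in the pseudogene RAET1K. RAET1L and RAET1K were in neither file. RAET1E, another NKG2D ligand gene outside the set, had 8 reads in shZEB1 and 7 in shCtrl. Summed over the 6 NKG2D ligands, so that reads shared among them stay inside the sum, there were 662 reads in shZEB1 and 653 in shCtrl, a ratio of 1.05 (interval 0.941 to 1.17). The summed FPKM was 36.3 in shZEB1 and 37.8 in shCtrl.

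The DNAM-1 ligands both lay below 0, and for PVR the reads separated the libraries. PVR, the poliovirus receptor (CD155), had an FPKM of 17.5 in shZEB1 and 25.1 in shCtrl, from 674 and 979 reads. This was 1.44-fold lower in shZEB1, with a log2 ratio of -0.50 and a read ratio of 0.713 (interval 0.645 to 0.787). Only 7.81% of the measured genes had a lower log2 ratio, and 6.89% had one lower than that of MICA. NECTIN2 (CD112; chr19:44846297-44889223), an adhesion molecule of cell junctions, had 37.0 in shZEB1 and 39.4 in shCtrl, from 755 and 824 reads, and its interval included 1 (read ratio 0.949, interval 0.858 to 1.05). The reads of the pair together gave a ratio of 0.821 (interval 0.765 to 0.880).

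PVR (Entrez Gene 5817, chr19:44643910-44666162) and NCR3LG1 (Entrez Gene 374383, chr11:17351800-17381661) are the 2 genes of the set whose read ratios lay farthest below and above 1 with intervals that left it out, and their promoters are set side by side for that reason. The capitals mark the E-box CACCTG, which PVR holds 187 bases before its start; over the 250 bases before its start NCR3LG1 holds neither orientation of it. Both are on the plus strand, from RefSeq, GRCh38.p14, at chr19:44643660-44643827 and chr11:17351550-17351755, and the last 30 bases of each lie inside GENCODE exons of the gene.
PVR: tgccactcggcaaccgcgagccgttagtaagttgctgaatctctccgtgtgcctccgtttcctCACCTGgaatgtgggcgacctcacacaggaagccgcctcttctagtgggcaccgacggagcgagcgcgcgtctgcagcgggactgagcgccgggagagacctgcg
NCR3LG1: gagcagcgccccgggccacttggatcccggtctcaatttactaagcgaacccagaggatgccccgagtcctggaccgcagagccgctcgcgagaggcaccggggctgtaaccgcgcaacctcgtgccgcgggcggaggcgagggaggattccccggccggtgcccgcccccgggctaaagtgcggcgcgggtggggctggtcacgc

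In the windows of the promoter table, an E-box was found before the starts of MICA, MICB, RAET1G and PVR, and not before those of the other 6 ligand genes. Of all promoter windows 17.5% held one, and the MICA and MICB windows, at 82.7% identity, are near copies of each other. Among the measured genes with it, the read ratio was 0.713 for PVR, 0.805 for MICA and 1.15 for MICB. The intervals of MICA and MICB included 1. Among the measured genes without it, the read ratio was 1.43 for NCR3LG1, 1.10 for BAG6, 0.949 for NECTIN2, 1.00 for ULBP2 and 1.36 for ULBP3. The intervals of NECTIN2, ULBP2 and ULBP3 included 1. Whether an E-box bears on these ratios was not tested.

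NKp30 ligands lay higher in shZEB1. NCR3LG1, which encodes the B7 family protein B7-H6, had an FPKM of 9.87 in shZEB1 and 6.93 in shCtrl, from 529 and 384 reads. Its log2 ratio of 0.46 was the highest of the set and stood above that of 90.2% of the measured genes, with a read ratio of 1.43 (interval 1.25 to 1.63). None of its 50-base stretches occurs unchanged in another gene's transcripts, the smallest share of the set, although stretches that differ by a few bases were not counted. The authors used the same length for it in both files. BAG6 (chr6:31639028-31652661) had an FPKM of 104 in shZEB1 and 94.6 in shCtrl, from 3179 and 2992 reads. The difference was small, with a log2 ratio of 0.13 and a read ratio of 1.10 (interval 1.05 to 1.16), and its separation from 1 came with the deepest coverage of the set. With reads scaled by edgeR or DESeq2, the lower end of the BAG6 interval came nearer to 1 (1.007 and 1.01).

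**Figure D2:**
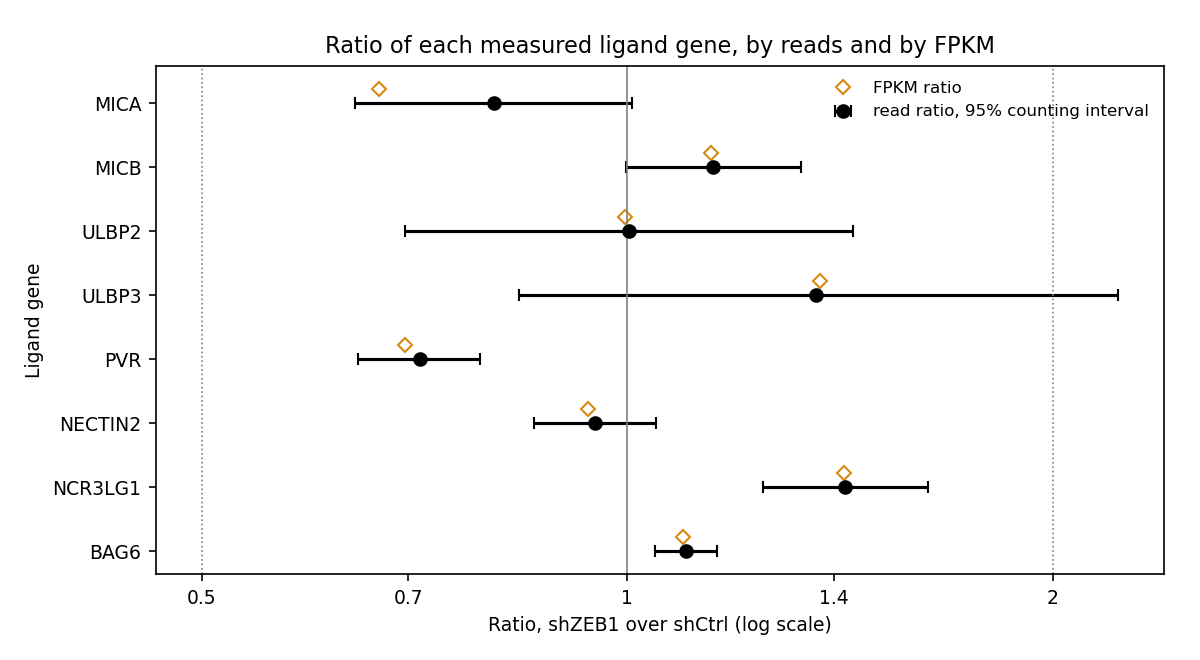
Ratio of shZEB1 over shCtrl (log axis) for the 8 measured ligand genes; filled circles are ratios of reads scaled to library totals with 95% exact binomial intervals, open diamonds are ratios of FPKM, and dotted lines mark 2-fold differences. The intervals of PVR, NCR3LG1 and BAG6 leave out 1, and MICA is the gene whose FPKM ratio (0.668) lies farthest from its read ratio (0.805).

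Ratios between ligands inside a library do not depend on how libraries are scaled. These pairs were chosen after the values were seen. There were 2.88 MICB reads per MICA read in shZEB1 and 2.02 in shCtrl, so the balance lay 1.43 times farther towards MICB in shZEB1 (interval 1.09 to 1.87). By FPKM, MICB over MICA was 2.235 in shZEB1 and 1.303 in shCtrl, as the MICA length differed between the libraries. The interval covers neither that length nor how reads were divided between these similar genes. NECTIN2 had 1.12 reads per PVR read in shZEB1 and 0.842 in shCtrl, a 1.33-fold difference (interval 1.16 to 1.53). BAG6 had 6.01 reads per NCR3LG1 read in shZEB1 and 7.79 in shCtrl, a ratio of 0.771 (interval 0.668 to 0.890). NCR3LG1 and PVR were paired because their read ratios lay farthest apart among those with intervals that left out 1, so their contrast is a description: NCR3LG1 had 0.785 reads per PVR read in shZEB1 and 0.392 in shCtrl, a 2.00-fold difference (interval 1.69 to 2.37).

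**Figure D3:**
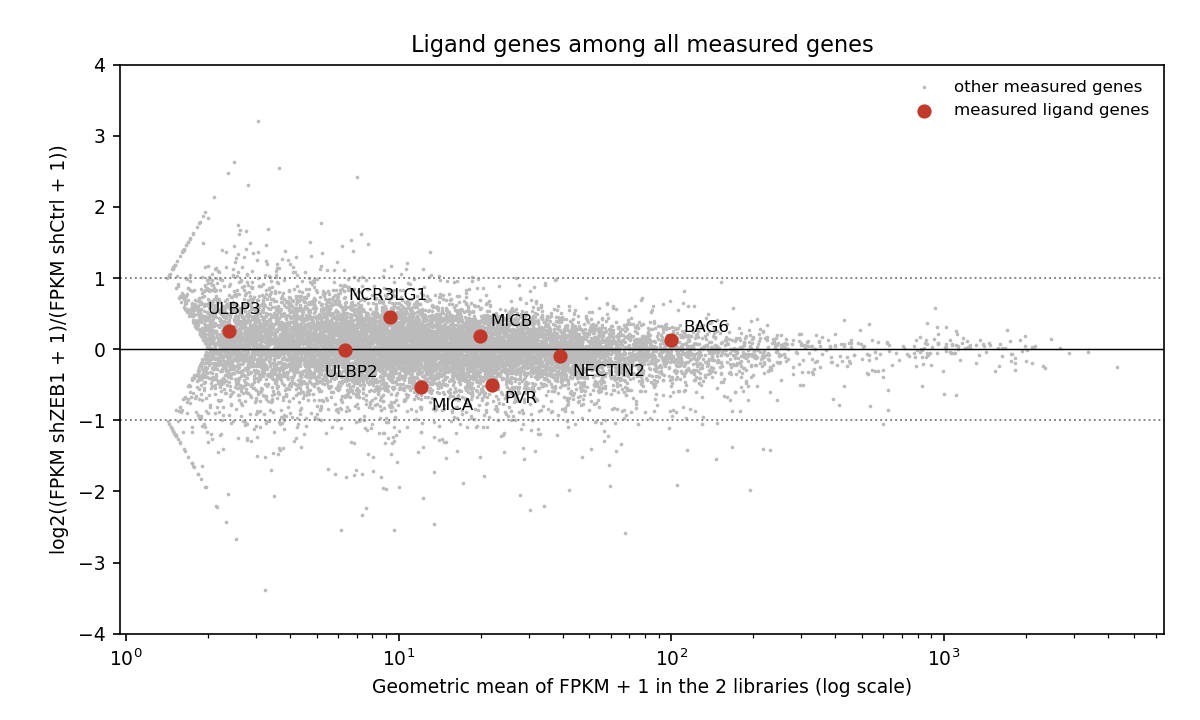
Log2 ratio of shZEB1 over shCtrl (FPKM + 1) against the geometric mean of FPKM + 1 in the libraries (log axis) for the measured genes, in grey, and the 8 measured ligand genes, in red; dotted lines mark log2 ratios of 1 and -1. The ligand genes lie between -0.53 (MICA) and 0.46 (NCR3LG1), inside the dotted lines.

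Larger differences were found among other genes that bear on recognition by NK cells. Among 14 further activating, adhesion and costimulatory ligands, 7 were measured, with a median log2 ratio of -0.07. Of these 1 was counted as lower and 0 as higher, against 1.61% and 0.937% of all measured genes. The lower one was ICAM1, which binds the integrin LFA-1, with an FPKM of 37.5 in shZEB1 and 88.5 in shCtrl (log2 ratio -1.22, read ratio 0.424, interval 0.394 to 0.457). Of its 50-base stretches 20.5% are also found in an antisense gene on the opposite strand. CD70, the ligand of CD27, had 12.7 in shZEB1 and 17.3 in shCtrl (read ratio 0.738, interval 0.559 to 0.972), and the interval of CD58, the ligand of CD2, included 1. The 2 measured nectins outside the set lay on opposite sides of 1. NECTIN3 had 10.3 in shZEB1 and 7.64 in shCtrl (read ratio 1.23, interval 1.09 to 1.39). NECTIN1 had 9.47 in shZEB1 and 10.3 in shCtrl (read ratio 0.838, interval 0.720 to 0.974). Both intervals left out 1, as did those of 49.3% of all measured genes. NECTIN4 was in neither file.

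Ligands of inhibitory NK receptors, MHC class I genes among them, had the lowest median log2 ratio of the lists, -0.71. That median is the value of CD274, which had 11 reads in shZEB1 and 19 in shCtrl and an interval that included 1 (0.258 to 1.33). Of 16 genes 11 were measured, and 2 passed the 2-fold rule, both lower in shZEB1, where 1.61% of all measured genes were counted as lower. The interval lay below 1 for 6 and above 1 for 3, against 21.4% and 27.9% of all measured genes. HLA-E, which engages the inhibitory receptor NKG2A, had an FPKM of 51.3 in shZEB1 and 107.7 in shCtrl (read ratio 0.478, interval 0.445 to 0.513). HLA-B had 21 reads in shZEB1 and 73 in shCtrl, and HLA-F an FPKM of 17.0 in shZEB1 and 33.1 in shCtrl. HLA genes are polymorphic and alike, so their separate values are uncertain. CEACAM1, an inhibitory adhesion molecule, lay the other way, at 8.16 in shZEB1 and 3.60 in shCtrl (read ratio 2.24, interval 1.77 to 2.85). Its log2 ratio of 0.99 fell just short of the rule. That log2 ratio was 1.16 with a pseudocount of 0.1, 1.13 with TPM, 1.10 with edgeR and 1.105 with DESeq2 scaling. With centring on the median ratio it was 0.971.

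Genes that act on the ligands themselves showed no common direction. Of 7 genes for shedding of ligands from the surface 6 were measured, with 3 intervals above 1, 3 below and a median log2 ratio of 0.03. As background for this list and the next, the interval of 27.9% of all measured genes lay above 1 and of 21.4% below. By the 2-fold rule, 2.55% were counted in either direction. ADAM17, a main sheddase, had an FPKM of 16.8 in shZEB1 and 13.2 in shCtrl (read ratio 1.27, interval 1.11 to 1.45). ADAM10, which also cleaves MICA and MICB, had 27.4 in shZEB1 and 31.6 in shCtrl (read ratio 0.870, interval 0.804 to 0.941). ADAM9 lay on the side of ADAM17 (read ratio 1.27, interval 1.18 to 1.37) and the matrix metalloproteinase gene MMP2 on that of ADAM10 (read ratio 0.731, interval 0.690 to 0.774). All 14 genes of a list of kinases and factors linked to the control of NKG2D ligand transcripts were measured. Of these 7 had intervals above 1 and 5 below, 0 were counted in either direction, and the median was 0.10. The list was not split by whether a gene raises or lowers these transcripts, so its counts give no direction for the ligands. The DNA damage kinase genes ATM and CHEK2 were on the higher side, at 14.8 in shZEB1 and 10.5 in shCtrl and at 22.6 in shZEB1 and 14.5 in shCtrl. The stress-response factor genes ATF4 and XBP1 were on the lower side, with read ratios of 0.712 (interval 0.679 to 0.746) and 0.618 (interval 0.566 to 0.673).

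BAG6 works with GET4 and UBL4A in a complex that hands tail-anchored proteins on to the membrane. Of 6 partners of BAG6, all measured, the interval lay above 1 for 1 and below 1 for 2. The shares over all measured genes were 27.9% and 21.4%. The median log2 ratio of the partners was 0.01. RNF126, a ubiquitin ligase recruited by BAG6, had an FPKM of 39.6 in shZEB1 and 54.9 in shCtrl, and SGTA, a co-chaperone, 55.4 in shZEB1 and 50.3 in shCtrl. Of 5 genes of the death receptor route by which NK cells kill, all were measured, and the median log2 ratio was 0.14. Beside the same shares over all measured genes, 1 interval lay above 1 and 1 below. The receptors themselves were scarce, at 1.66 in shZEB1 and 1.41 in shCtrl for FAS and 1.5 in shZEB1 and 1.17 in shCtrl for TNFRSF10B, and both intervals included 1. Downstream of them, CASP8 was on the higher side (read ratio 1.52, interval 1.31 to 1.77) and the adaptor gene FADD on the lower (0.662, interval 0.599 to 0.731). Of the 50-base stretches of FADD 51.1% are also found in a gene on the opposite strand.

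**Figure D4:**
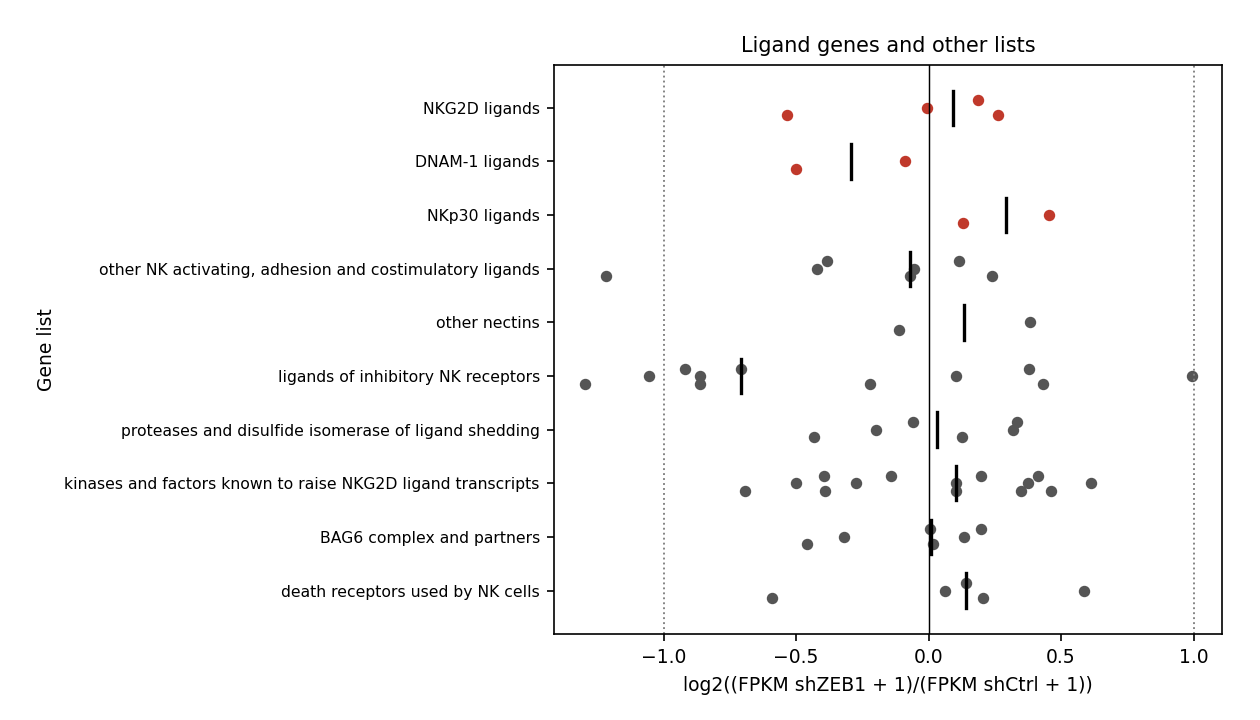
Log2 ratio of shZEB1 over shCtrl (FPKM + 1) of each measured gene in the ligand sets (red) and in other lists of NK recognition and ligand control (grey); black bars are list medians, and dotted lines mark log2 ratios of 1 and -1. The list of inhibitory receptor ligands has the lowest median (-0.71, the value of CD274, whose read interval includes 1), and the activating ligands lie between -0.53 and 0.46. The label of the list of kinases and factors names a direction that was not tested for each gene.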

How the data were processed

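RNA was sequenced in 1 shZEB1 and 1 shCtrl library. The submitters' processing notes name RSEM 1.2.8, HISAT2 2.1.0, DESeq, Bowtie2 2.2.5 and hg38; the sources used here give neither their order and settings nor the strand. Per the file headers, each deposited file gives per gene a length, an expected count (estimated reads) and an FPKM value, computed by the authors within 1 library. A gene absent from 1 file was entered at 0. RefSeq (GRCh38.p14) gave symbols for 15183 of 15217 numeric identifiers. Expected counts were rounded for the intervals, which are exact conditional binomial (Clopper-Pearson). With 1 library in each group the dispersion is unknown, so edgeR and DESeq2 served for scaling and not for a test. The rule was tested on simulated data.

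Alternatives were a pseudocount of 0.1, TPM, centring on the median ratio, size factors from DESeq2 1.42.0, TMM from edgeR 4.0.16, other filters and a fold of 1.5. Genes named were all 10 ligands and up to 4 measured genes of each other list with the largest absolute log2 ratio; others named were chosen after their values were seen. The members and lists were chosen with earlier results of these data known. Promoters came from RefSeq (GRCh38.p14, 250 bases before each start, both strands searched) and were aligned with Biopython 1.88. Stretches of 50 bases were compared between GENCODE 29 transcripts on both strands. Computations used R 4.3.3 and Python 3.11.15 with SciPy 1.17.1, pandas 2.3.3 and NumPy 2.4.6.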

Additional observations from a re-analysis of the deposited data

How the results depend on the processing

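The counts of ligand genes past the 2-fold rule stayed at 0 in both directions under the 8 alternatives run. The median log2 ratio of the measured ligands lay between 0.02 and 0.11, and the summed NKG2D ligand reads had a ratio of 1.01 under edgeR and DESeq2 scaling, against 1.05 as reported. The number of ligand genes with an interval below 1 was 2 under edgeR TMM scaling and 2 under DESeq2 size factors, against 1 with library totals. The gene added was MICA, whose upper bound moved to 0.969 and 0.972. Of 50 recomputed log2 ratios of single ligand genes, 0 moved by more than their counting interval and 1 had another sign (ULBP2 with TPM, at 0.04 against -0.00454). Over all measured genes, the counts of higher and lower genes were 115 and 198 as reported, 311 and 294 with a pseudocount of 0.1, 236 and 227 with TPM, 294 and 332 with edgeR, 309 and 332 with DESeq2, 52 and 142 where shZEB1 and shCtrl both had to reach an FPKM of 1, and 611 and 664 at a fold of 1.5. No paired analysis was possible because each group had 1 library, and for the same reason no library could be left out. Depth limits ULBP1 and RAET1G most, at 1 or 2 reads each.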
